A study of Homo sapiens with 9 samples.

Results

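MBD-VP16 was compared with empty vector in HEK293 cells, a line long established from human embryonic kidney, to find which genes that are silent in these cells rose with the fusion. All transcript clusters with values were used, including those that carry several gene symbols or none, so that multicopy gene families stayed in view. The comparison took 6 of the 9 arrays of the study: 3 arrays of cells transfected with the vector alone (PCMV) and 3 of cells transfected with MBD-VP16. The other 3 arrays, of cells transfected with Aire, entered the same fit and gave a second comparison with a transfected construct. All 3 groups were plated, transiently transfected and grown for 72 h before total RNA was taken, so vector cells went through the same transfection. The share of cells that took up each plasmid, the species and extent of the MBD sequence and the strength of the promoter in each plasmid were not stated.

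MBD usually stands for methyl-CpG-binding domain, the fold by which proteins such as MBD1 and MBD2 recognise methylated cytosine in CpG dinucleotides. Those proteins normally recruit corepressors to methylated promoters, and methylation marks many germline genes, cancer-testis antigens and repeated gene arrays in somatic cells. VP16 is a herpesvirus activator whose acidic domain recruits the transcription machinery, so a fusion of both carries an activator on a domain that binds methylated DNA.

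Values are deposited log2 expression values made with RMA, which corrects background, brings arrays to a shared distribution and summarises the probes of each transcript cluster. A cluster was called when its adjusted p was under 0.05 in limma over all 25679 clusters with values. A cluster was called raised when it was called and at least 2-fold higher with MBD-VP16. Some clusters share all their probes with a paralog and hold identical values on all 9 arrays, so counts of distinct value sets are given beside many counts of clusters. In bulk RNA, more expressing cells and more RNA per cell cannot be told apart.

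Array medians lay between 6.11 and 6.23, and arrays of a group correlated at 0.9879 to 0.9928 across clusters, against 0.9738 to 0.9809 between vector and MBD-VP16 arrays. The residuals of vector array 1 were widest (SD 0.191), and those of the other arrays had SDs of 0.137 to 0.161. VIM, KRT8 and CDH2, which this line expresses, read 10.47, 10.1 and 9.22 in vector cells. ALB, PECAM1, LUM and MYH2, markers of liver, endothelium, fibroblasts and muscle, read 3.03, 3.69, 4.12 and 4.14. None of these 7 genes was called with MBD-VP16. MBD1, whose probes can read a construct that holds its sequence, read 8.49, 7.55 and 8.52 with vector and 10.12, 9.91 and 9.86 with MBD-VP16. Its rise of 1.78 ± 0.248 (SE) passed the test (limma adjusted p = 0.00295), and MBD2, MBD3 and MBD4 were not called. Whether MBD1 reads the construct or the cellular gene was not tested.

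Germline and early embryo gene families rose most with MBD-VP16. The highest rises were those of GAGE antigens on the X chromosome, TRIM43, TRIM48, TRIM49 and TRIM64, PRAME family genes, MBD3L2 and its copies, RFPL4B and SLC34A2. The clusters with the highest 30 rises were 17.3-fold to 116-fold higher with MBD-VP16, and most of them had low signal in vector cells. HOX genes rose less, by up to 2.71-fold, and X-linked cancer-testis families other than GAGE stayed below 2-fold.

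Promoter sequence is shown here for genes from the leading groups, taken from RefSeq (GRCh38.p14) as the window of 250 bases before to 50 after the annotated start. The first 4 sets of capitals mark CpG dinucleotides, the letters that a methyl-CpG-binding domain reads when methylated. GAGE12C stands for the family with the highest rise (chrX:49531927-49532226, plus strand, 13 CpG), SLC34A2 for a gene with a CpG-rich start that rose 33.1-fold (chr4:25655601-25655900, plus strand, 38 CpG), CCNA1 for a germline cyclin (chr13:36431705-36432004, plus strand, 35 CpG) and ZIC1 for developmental regulators (chr3:147409115-147409414, plus strand, 26 CpG).
GAGE12C: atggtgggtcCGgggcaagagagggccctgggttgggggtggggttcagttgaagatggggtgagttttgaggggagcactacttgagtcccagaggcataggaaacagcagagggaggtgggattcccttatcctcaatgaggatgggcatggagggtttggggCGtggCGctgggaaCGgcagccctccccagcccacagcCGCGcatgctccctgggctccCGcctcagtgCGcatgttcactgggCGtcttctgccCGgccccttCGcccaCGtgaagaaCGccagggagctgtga
SLC34A2: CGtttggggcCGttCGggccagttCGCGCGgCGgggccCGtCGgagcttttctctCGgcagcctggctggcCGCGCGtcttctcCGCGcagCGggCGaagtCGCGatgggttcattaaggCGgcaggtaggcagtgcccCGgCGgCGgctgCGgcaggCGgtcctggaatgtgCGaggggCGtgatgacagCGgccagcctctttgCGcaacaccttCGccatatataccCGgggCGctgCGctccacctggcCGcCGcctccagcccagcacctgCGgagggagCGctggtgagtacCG
CCNA1: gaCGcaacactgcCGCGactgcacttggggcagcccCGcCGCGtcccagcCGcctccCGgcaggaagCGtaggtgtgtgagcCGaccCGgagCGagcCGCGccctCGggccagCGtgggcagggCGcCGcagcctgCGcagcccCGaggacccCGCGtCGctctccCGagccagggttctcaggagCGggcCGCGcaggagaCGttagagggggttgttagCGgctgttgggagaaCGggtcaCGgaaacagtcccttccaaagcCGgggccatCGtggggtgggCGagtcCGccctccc
ZIC1: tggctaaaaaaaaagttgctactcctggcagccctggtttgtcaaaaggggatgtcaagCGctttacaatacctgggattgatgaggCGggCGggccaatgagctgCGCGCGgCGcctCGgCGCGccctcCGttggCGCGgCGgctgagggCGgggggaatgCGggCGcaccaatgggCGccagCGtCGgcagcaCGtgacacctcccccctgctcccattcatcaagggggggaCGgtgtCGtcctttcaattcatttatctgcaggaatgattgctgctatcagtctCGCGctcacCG

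The next 3 windows come from cleavage-stage genes, and their capitals mark the motif TAANNNAATCA, in which N stands for any base. It is a looser search form of the motif known for DUX4, a homeodomain factor of the cleavage-stage embryo. A match therefore need not be a DUX4 site. TRIM48 (chr11:55261905-55262204, plus strand) and MBD3L2 (chr19:7049071-7049370, plus strand) hold 1 and 5 CpG, and ZSCAN5B (chr19:56197841-56198140, minus strand) holds 12.
TRIM48: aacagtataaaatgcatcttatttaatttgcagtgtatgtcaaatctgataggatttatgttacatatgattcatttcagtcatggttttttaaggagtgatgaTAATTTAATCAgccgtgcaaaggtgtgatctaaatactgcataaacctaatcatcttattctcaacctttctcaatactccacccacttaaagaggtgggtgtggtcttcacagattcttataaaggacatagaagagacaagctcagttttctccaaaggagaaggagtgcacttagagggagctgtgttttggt
MBD3L2: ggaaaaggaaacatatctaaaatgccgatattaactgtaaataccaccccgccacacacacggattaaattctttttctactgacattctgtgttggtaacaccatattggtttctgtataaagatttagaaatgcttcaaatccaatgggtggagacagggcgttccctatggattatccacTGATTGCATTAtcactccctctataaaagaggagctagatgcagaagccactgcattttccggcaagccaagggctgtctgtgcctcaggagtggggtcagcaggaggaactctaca
ZSCAN5B: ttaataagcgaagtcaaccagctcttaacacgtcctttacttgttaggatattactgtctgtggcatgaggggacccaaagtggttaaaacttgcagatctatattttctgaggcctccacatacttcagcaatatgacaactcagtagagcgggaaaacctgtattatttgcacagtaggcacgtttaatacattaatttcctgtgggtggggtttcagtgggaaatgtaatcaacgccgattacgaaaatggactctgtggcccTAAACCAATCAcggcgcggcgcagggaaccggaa

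Of the 25679 clusters, 249 (0.97%) were raised and 46 (0.179%) fell at least 2-fold. Without the fold line, 1220 (4.75%) were called higher and 1319 (5.14%) lower. At an unadjusted p under 0.05 there were 6380 (24.8%). The counts of calls at any size depended on single arrays: higher calls fell to 733 without MBD-VP16 array 2 and to 753 without array 3, and lower calls to 613 and 691, and also to 858 without MBD-VP16 array 1, 840 without vector array 1 and 866 without vector array 2. The 249 raised clusters held 202 distinct value sets. Of them, 138 carried a single symbol, 99 carried several and 12 carried none, and 134 are annotated as open to cross-hybridisation. Against the Aire arrays 230 of the 249 were also higher, where 463 clusters (1.8%) were higher among all tested, and 21 of the 249 were called higher with Aire against vector, where 406 of all clusters (1.58%) were. Of those 21, 6 rose at least 2-fold with Aire as well, as did 0.0584% of all clusters. The 249 were chosen by the same MBD-VP16 arrays that the comparison with Aire uses, so the 230 are no independent support. Both comparisons with vector share the vector arrays. Centring each array on its median turned the split of calls from 1220 higher and 1319 lower (48.1% higher) into 873 and 2286 (27.6% higher), a shift of the median difference from 0.003 to -0.07.

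**Figure D1:**
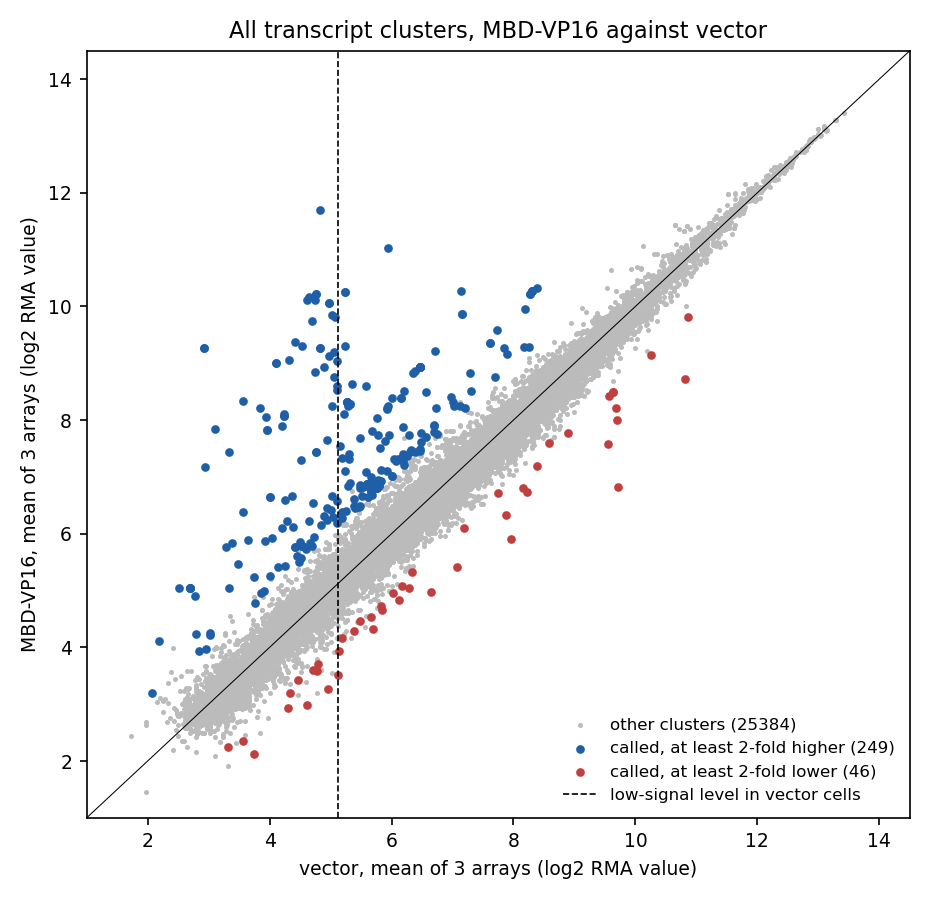
Mean log2 RMA value of each of 25679 transcript clusters with vector (horizontal) and with MBD-VP16 (vertical), 3 arrays each; the 249 raised clusters are blue, the 46 that fell at least 2-fold are red, and the dashed line is the low-signal level of 5.13. Most raised clusters lie in the lower part of the vector range, and 0 of them is among the 10% of clusters with the highest vector mean.

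Rises came mostly from clusters of low and middling signal. Low signal was set from olfactory receptor genes, which are silent outside the nose: a cluster counted as low where its vector mean was at or under 5.13, the 90th percentile of 343 olfactory receptor clusters. Of 8276 low-signal clusters 106 (1.28%) were raised, and 269 (3.25%) were called higher at any size. Of the 17403 clusters above that level 143 (0.822%) were raised. When clusters were cut into 10 equal bins by vector signal, the numbers raised ran 25, 26, 43, 47, 49, 33, 11, 6, 9 and 0 from the lowest bin to the highest. Lower calls ran the other way, with 18 in the lowest bin and 381 and 340 in the highest 2. The 5 low-signal clusters just past the 2-fold line were FGF4 (1.02), H2AC14 (1.03), a cluster of LRRTM2 and CTNNA1 (1.03), PCDHB6 (1.06) and GDF3 (1.08). Just under it lay TRIM51G (0.99), GCNT2 (0.99), an unnamed cluster (0.99), ZNF844 (0.98) and a cluster of TRIM22 and OR56B1 (0.97).

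**Figure D2:**
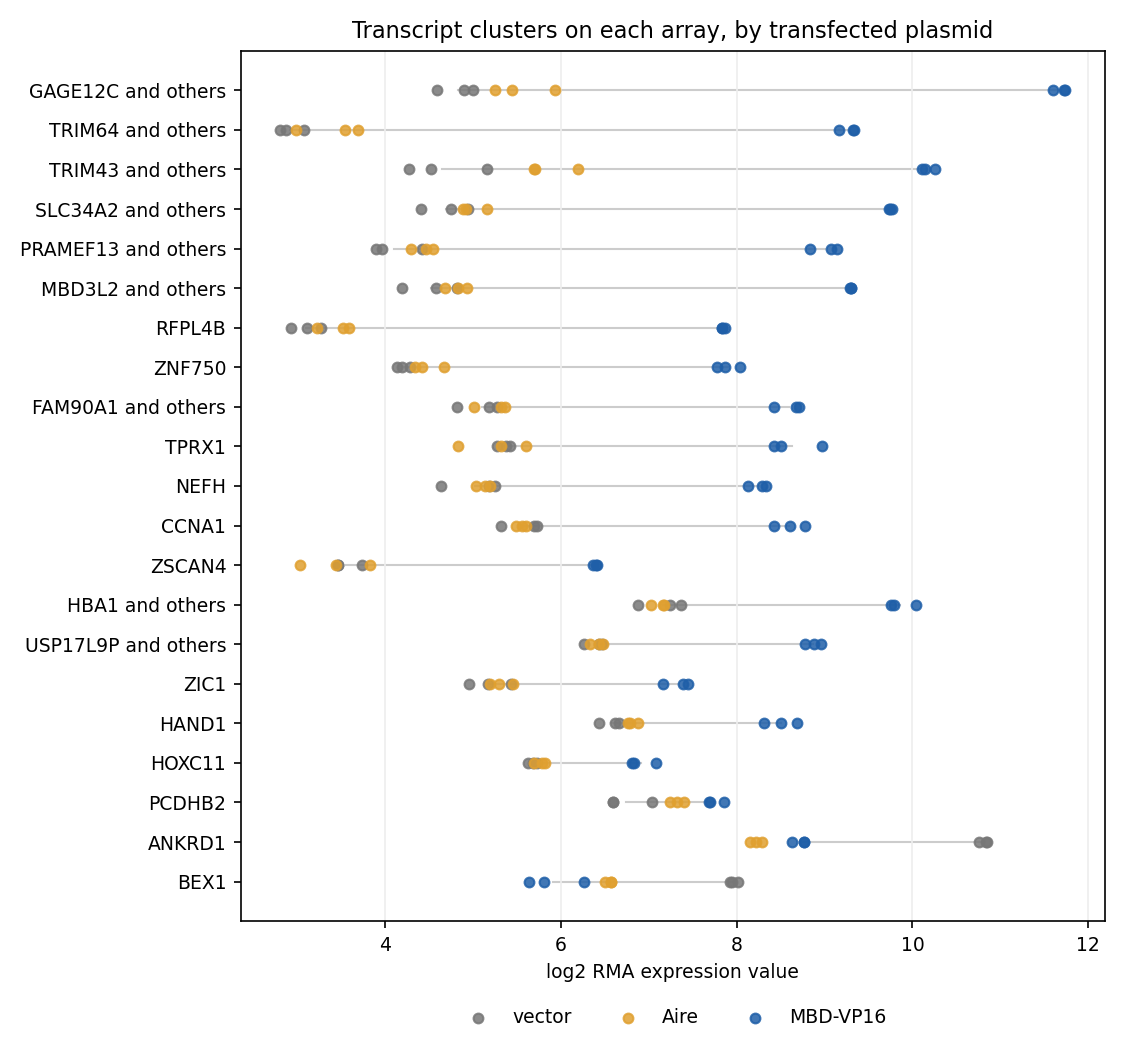
Log2 RMA value of 21 clusters on each array (points; grey vector, orange Aire, blue MBD-VP16), with a grey line between the vector and MBD-VP16 means. The MBD-VP16 points of the 19 upper clusters all lie to the right of the vector points, and those of ANKRD1 and BEX1 lie to the left.

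GAGE genes, cancer-testis antigens encoded in a tandem array on the X chromosome and normally read in germ cells, gave the highest rise of any cluster. The leading GAGE cluster, which matches GAGE12C, GAGE12E, GAGE12H and further copies (X, 49195253 to 49195366 in the positions of the deposited table, for which no genome build is named), read 5.0, 4.9 and 4.59 with vector. It read 5.45, 5.25 and 5.94 with Aire and 11.6, 11.74 and 11.72 with MBD-VP16. The MBD-VP16 arrays stood far above those of both other groups, and the Aire arrays lay somewhat above vector. The rise was 6.86 ± 0.172 log2 units (SE), or 116-fold (limma adjusted p = 6.37e-08). All 9 GAGE clusters (7 distinct value sets) were called higher, 8 of them at least 2-fold, with a median difference of 5.03 against 0.0 over all clusters. Since the copies share probes, which GAGE gene rose cannot be told from these clusters.

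Other X-linked cancer-testis families differed from GAGE in size. In this class of 115 clusters (94 distinct value sets) 30 (26.1%, 18 distinct) were called higher and 0 lower, beside 4.75% and 5.14% of all clusters. Of the 30, 8 passed 2-fold, all of them GAGE. CT45A rose in 6 of 6 clusters by a median of 0.61, CT47 in 10 of 11 clusters, of which 3 are distinct, by a median of 0.47, and SPANX in 3 of 11. MAGEA (13 clusters), MAGEB (9), MAGEC (3), SSX (8), PAGE (5) and XAGE (9) had no call in either direction. All 30 higher calls of the class fell on clusters open to cross-hybridisation, and 0 of its 42 other clusters was called. Outside GAGE these calls lay close to the threshold: leaving out MBD-VP16 array 1 gave 25 for the class, and leaving out any of the other arrays gave counts down to 13, a fall of over 1.5 times.

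Genes of the cleavage-stage embryo, many of them known targets of DUX4, rose as a broad group. Of 103 such clusters (83 distinct value sets) 80 (77.7%, 66 distinct) were called higher, 75 at least 2-fold, and 0 lower. The median difference was 2.30. Of all clusters 4.75% were called higher. Among the 26 clusters not open to cross-hybridisation 22 were called higher, 21 of them at least 2-fold, with a median of 1.94. In 76 of the 80 the level was also higher than with Aire, in a comparison that uses the same MBD-VP16 arrays. The 13 clusters (8 distinct) that read the DUX4-like repeats themselves had a median difference of -0.13, and 0 of them was called higher or lower. All 13 are open to cross-hybridisation and 0 had low signal with vector, so they cannot tell whether DUX4 RNA itself changed. This class was written with earlier results of these data in view, so its count is a description of the group and no independent support for its direction.

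TRIM43, TRIM48, TRIM49 and TRIM64 belong to a young primate group of tripartite-motif genes, and RFPL genes encode ret finger protein-like relatives. TRIM64 and its copies (11, 89701669 to 89707039) read 2.81, 2.88 and 3.08 with vector, 3.7, 2.99 and 3.55 with Aire and 9.32, 9.17 and 9.33 with MBD-VP16. This was a rise of 6.35 ± 0.167, or 81.6-fold (limma adjusted p = 6.47e-08), from one of the lowest signals on the array to well above the array median. TRIM43 read 5.16, 4.53 and 4.27 with vector, 6.2, 5.71 and 5.7 with Aire and 10.26, 10.14 and 10.11 with MBD-VP16. It rose by 5.52 ± 0.218 with MBD-VP16 (limma adjusted p = 5.36e-07) and by 1.22 with Aire (adjusted p = 0.0205), and the difference between those constructs was 4.30 (adjusted p = 3.73e-06). RFPL4B, on a cluster with no sign of cross-hybridisation, read 3.11, 2.93 and 3.27 with vector and 7.83, 7.83 and 7.87 with MBD-VP16, 26.7-fold higher. RFPL4A, an oocyte and early embryo gene, was already well above the low-signal level with vector (7.9), fell to 5.45 with Aire and stood at 9.17 with MBD-VP16, a difference of 1.27 from vector and of 3.72 from Aire. Of the 48 clusters of TRIM, RFPL and PRAMEF multicopy genes 44 (35 distinct) were called higher and 41 were raised, beside 4.75% and 0.97% of all clusters.

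PRAME family genes, leucine-rich repeat genes expressed in germ cells and early embryos, rose in 25 of 28 clusters (19 of 21 distinct), with a median of 1.85. A cluster of PRAMEF13, PRAMEF14, PRAMEF1 and PRAMEF2 read 3.97, 4.42 and 3.9 with vector and 8.83, 9.07 and 9.14 with MBD-VP16, a rise of 4.92 ± 0.146 (limma adjusted p = 9.91e-08). The members did not rise alike: PRAMEF10 differed by 1.35, PRAMEF12 by 1.73 and PRAMEF20 by 2.27. Clusters of the same names also differed. A PRAMEF17 cluster (0.34) and 2 identical clusters of PRAMEF18, PRAMEF19 and PRAMEF22 (0.11) were not called, while PRAMEF17/PRAMEF10 (0.57) and PRAMEF22/PRAMEF4/PRAMEF18/PRAMEF19 (1.57) were called higher, so these copies cannot be told apart.

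MBD3L2, an MBD3-like gene that lacks the methyl-CpG-binding domain itself, rose in 5 of 5 clusters (4 distinct) with a median of 4.45. Its leading cluster read 4.2, 4.58 and 4.82 with vector, 4.83, 4.68 and 4.93 with Aire and 9.3, 9.3 and 9.29 with MBD-VP16, 27.2-fold higher than vector (4.76 ± 0.141, limma adjusted p = 9.91e-08). USP17, a family of deubiquitinases in large tandem arrays, rose in 15 of 15 clusters (8 distinct, median 2.47). FAM90A rose in 13 of 13 (9 distinct, median 3.01), UBTFL1 in 6 of 6 (3 distinct, median 2.35) and SSU72L in 3 of 3 (2 distinct, median 2.66). With vector 0 of the USP17 and 2 of the FAM90A clusters had low signal, so most of these were not silent by that measure. All UBTFL1 and SSU72L clusters had low signal. Of the 18 FRG2 clusters 3 were called higher, and the median was -0.1.

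ZSCAN4, TPRX1, DUXA and CCNA1 were read by clusters that are not open to cross-hybridisation. ZSCAN4, a zinc finger gene expressed in a burst at genome activation, read 3.47, 3.74 and 3.47 with vector and 6.37, 6.41 and 6.4 with MBD-VP16, 7.13-fold higher (2.83 ± 0.175, limma adjusted p = 1.65e-05). TPRX1, a homeobox gene of the same stage, read 5.28, 5.42 and 5.38 with vector and 8.5, 8.97 and 8.43 with MBD-VP16, 9.67-fold higher. DUXA, a DUX4 relative, read 3.27, 3.4 and 3.49 with vector and 6.04, 5.99 and 5.47 with MBD-VP16. CCNA1, the germline cyclin A1, read 5.32, 5.7 and 5.73 with vector and 8.78, 8.42 and 8.61 with MBD-VP16. In these 4 genes the Aire arrays differed from vector by 0.12 or less, and the 3 MBD-VP16 arrays lay above all other arrays. The H3.Y histone genes rose as well, H3Y2 by 2.70 ± 0.169 and the shared cluster of H3Y1 and H3Y2 by 3.14 ± 0.102.

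Most other germline genes did not follow. Of 84 germline and meiosis clusters 5 (5.95%) were called higher and 3 lower, with a median difference of 0.07. Of all clusters 4.75% were called higher and 5.14% lower. DPPA3, a maternal factor that protects imprints in the zygote, read 4.45, 4.05 and 4.34 with vector and 6.11, 6.43 and 6.11 with MBD-VP16, a rise of 1.94 ± 0.128. BRDT, the testis bromodomain protein, rose by 1.2 ± 0.092 and TKTL1, a transketolase-like gene, by 0.84 ± 0.134. SOHLH2, a germ cell transcription factor, fell by 0.57, and its difference from the Aire arrays was 0.01.

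**Figure D3:**
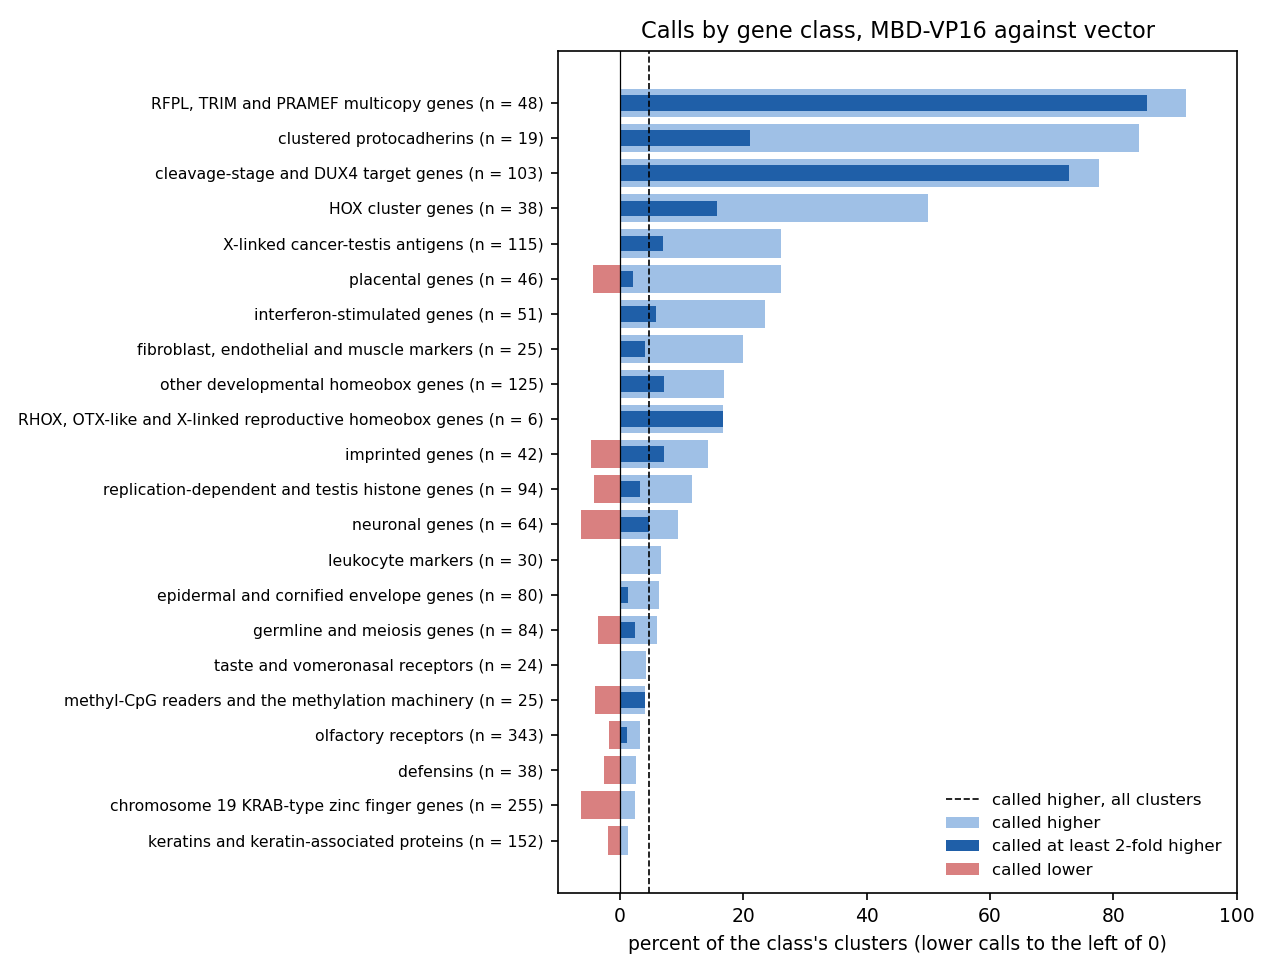
Share of each gene class called higher (light blue), called at least 2-fold higher (dark blue) and called lower (red, drawn to the left of 0), MBD-VP16 against vector, with the number of clusters in brackets; the dashed line is the 4.75% of all clusters called higher. TRIM, RFPL and PRAMEF genes, protocadherins, cleavage-stage genes and HOX genes lie farthest above the line, and keratins and chromosome 19 zinc finger genes lie below it.

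Homeobox genes, which set position and cell identity in development, rose in part and by less. Of 38 HOX clusters 19 were called higher, 6 at least 2-fold, and 0 lower, with a median of 0.38. By cluster of origin, 8 of 11 HOXA, 7 of 10 HOXB, 3 of 8 HOXC and 1 of 9 HOXD clusters rose. HOXC10 read 7.37, 6.5 and 7.03 with vector and 8.5, 8.34 and 8.38 with MBD-VP16, the highest rise of a HOX gene (2.71-fold). HOXC11 read 5.63, 5.68 and 5.73 with vector and 7.08, 6.81 and 6.83 with MBD-VP16, 2.34-fold higher (1.23 ± 0.086, limma adjusted p = 3.99e-05). HOXB6 rose by 1.22 ± 0.121, HOXA11 by 1.16 ± 0.126 and HOXA7 by 1.01 ± 0.111. All but 2 of the HOX clusters stood above the low-signal level with vector, so this group was not silent by that measure. Of the 19 that rose, 10 were also higher than with Aire, in a comparison that uses the same MBD-VP16 arrays.

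Of 125 clusters of other developmental homeobox genes 21 (16.8%) were called higher, 9 at least 2-fold, and 0 lower, with a median of 0.18. Of all clusters 4.75% were called higher. VENTX, expressed in blood and early embryo, rose by 1.75 ± 0.142, DLX5, of craniofacial and placental development, by 1.49 ± 0.113, HMX2 by 1.28 ± 0.102, DLX3 by 1.16 ± 0.1 and LHX2 by 1.15 ± 0.097. ESX1, an X-linked homeobox gene of placenta and testis, read 4.8, 4.98 and 5.08 with vector and 6.34, 6.58 and 6.46 with MBD-VP16, 2.84-fold higher. Other developmental regulators among the raised clusters were ZIC1, a zinc finger gene of the neural tube (4.42-fold), HAND1, a helix-loop-helix factor of heart and trophoblast (3.81-fold), TBX5, of limb and heart (3.55-fold), and SOX15 (3.63-fold). These 4 were chosen for naming after their values were seen.

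Clustered protocadherins are adhesion proteins that differ between neurons and are encoded in arrays with a promoter per exon. They were called higher in 16 of 19 clusters (84.2%), 4 of them at least 2-fold, and lower in 0 (median 0.77). The shares over all clusters were 4.75% higher and 5.14% lower. PCDHB2 read 6.6, 7.04 and 6.59 with vector, 7.24, 7.32 and 7.4 with Aire and 7.69, 7.86 and 7.7 with MBD-VP16. PCDHB11 read 6.3, 6.29 and 6.52, then 7.04, 7.27 and 7.21, then 7.26, 7.09 and 7.6, so its Aire and MBD-VP16 arrays overlapped. Of the 16 called, 1 was higher than with Aire, and the Aire arrays differed from vector by a median of 0.33. The count of 16 was 8 without MBD-VP16 array 1, 8 without MBD-VP16 array 2, 7 without MBD-VP16 array 3, 9 without vector array 1 and 8 without vector array 2.

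Single genes of other tissues also rose far. SLC34A2, the sodium-phosphate transporter of lung and gut (on a cluster that also carries the name ROS1), read 4.41, 4.95 and 4.75 with vector and 9.77, 9.75 and 9.73 with MBD-VP16. It rose by 5.05 ± 0.132, or 33.1-fold (limma adjusted p = 6.47e-08). ZNF750, a regulator of epidermal differentiation, read 4.14, 4.29 and 4.2 with vector and 8.04, 7.78 and 7.87 with MBD-VP16, 12.9-fold higher. The other epidermal genes did not move with it: 5 of 80 clusters (6.25%) rose, beside 4.75% of all clusters, and 1, ZNF750, passed 2-fold. NEFH, the heavy neurofilament chain, rose 9.34-fold, NEFM, the medium chain, 5.27-fold and INA, alpha-internexin, 2.2-fold, while NEFL, the light chain, which was already at 8.56 with vector, differed by -0.07 (limma adjusted p = 0.579). Of 64 neuronal clusters 6 (9.38%) rose and 4 fell, beside 4.75% and 5.14% of all clusters.

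Alpha-globin rose and beta-globin did not pass the test. HBA1 and HBA2, which encode adult alpha-globin and share a cluster of probes, read 6.88, 7.24 and 7.37 with vector, 7.16, 7.03 and 7.17 with Aire and 9.79, 9.76 and 10.04 with MBD-VP16, 6.5-fold higher (2.70 ± 0.131, limma adjusted p = 2.48e-06). HBZ, the embryonic zeta chain of the same locus, read 4.53, 3.97 and 4.13 with vector and 6.41, 5.78 and 6.12 with MBD-VP16 (1.89 ± 0.255, limma adjusted p = 0.00241). A second HBZ cluster (0.59) and the neighbours HBM (0.06) and HBQ1 (0.19) were not called. In the beta-globin locus HBB differed by 0.08 (limma adjusted p = 0.729) and HBE1 by 0.10 (adjusted p = 0.86). The HBG1 and HBG2 probe sets did not pass the test either, and one value set scattered from 3.15 to 4.54 with vector and from 3.85 to 5.48 with MBD-VP16. The globin genes were chosen for naming after the alpha-globin locus was seen to rise.

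Several other gene families showed few calls. The low-signal level was set from the 343 olfactory receptor clusters, so that 308 of them lie at or under it follows from its definition. By that level 20 of 24 taste and vomeronasal receptors and 31 of 38 defensins had low signal in vector cells. Of the keratin clusters 66 of 152 did, and of the zinc finger clusters of chromosome 19, 29 of 255. Of 343 olfactory receptor clusters 11 were called higher and 6 lower, with a median of -0.02, and 9 of the higher ones were OR7E clusters. Of 152 keratin and keratin-associated clusters 2 rose and 3 fell, of 24 taste and vomeronasal receptors 1 rose, and of 38 defensins 1 rose and 1 fell. Chromosome 19 zinc finger genes of the KRAB type had 6 of 255 clusters higher and 16 lower, with a median of -0.05. These shares of higher clusters lie below the 4.75% of all clusters, but among low-signal clusters 3.25% were called higher. The olfactory receptor share (3.21%) lay near that, and the taste receptor and defensin counts are 1 cluster each. For these 3 families the shares therefore show no difference from other low-signal clusters.

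The raised clusters gathered in 20 loci, where a locus is at least 3 raised clusters that do not overlap each other, with neighbours within 500 kb. These loci held 145 of the 249 raised clusters (98 distinct value sets). Loci are built from the same values, so they are described and not tested. On chromosome 8 (7119163 to 7891076) 33 clusters (17 distinct) of FAM90A, USP17 and LINC00965 were raised, of 54 (31 distinct) in the span, and 39 were called higher. On chromosome 1 (12834984 to 13747803) the PRAMEF array held 23 raised clusters (17 distinct) of 32 (24 distinct), and 27 were higher. On chromosome 11 (89485965 to 89820287) all 10 clusters of the span (6 distinct value sets) rose by 2.35 to 6.35. They carry the names TRIM49, TRIM48, TRIM64, TRIM51 and UBTFL1, most of them together with names of copies. The RefSeq windows of TRIM48 (55261905) and TRIM51 (55883047, both GRCh38.p14) lie elsewhere on chromosome 11, so these names do not place those 2 genes in the span. On chromosome 4 (9326890 to 9370796) all 10 USP17 clusters rose by 2.45 to 2.51, on 4 distinct value sets. In this locus and in the chromosome 8 locus above, 0 of the raised clusters had low signal with vector.

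At 12 of the 20 loci 0 of the 10 flanking clusters (5 on each side) was called higher. With 4.75% of all clusters called higher, 10 clusters often hold no such call, so this count says little about the edges of the loci. A raised cluster within 500 kb joins the locus by rule, so flanking clusters that near cannot be raised ones. The GAGE array (X, 49160148 to 49373139) held 9 clusters (7 distinct), 9 of them higher, while the differences of its flanking clusters ran from -0.26 to 0.31. The MBD3L2 array (19, 7018982 to 7058651) had 5 of 5 clusters (4 distinct) at 4.08 to 4.76 and flanking differences of -0.29 to 0.6. The USP17 array of chromosome 4 had flanking differences of -0.25 to 0.28. The protocadherin locus (5, 140474219 to 140560021) had 6 of 10 flanking clusters called higher, and all 6 are protocadherins too, so these calls lie within the gene family. The alpha-globin locus had 3 of 10 higher, SNRNP25 (0.4), NPRL3 (0.33) and a cluster of FAM234A and ARHGDIG (0.35). The larger chromosome 8 locus also had 3 of 10, from LINC00965 and OR7E clusters. In the HOXA locus on chromosome 7, 9 of 11 clusters were called higher and 1 of 10 flanking clusters was.

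Other loci held genes of more than a single family. On chromosome 17 (7162666 to 7561089) CLDN7, a tight-junction claudin (1.04), SOX15 (1.86) and ATP1B2, a sodium pump subunit (1.13), were raised among 37 clusters, of which 5 were called higher and 2 lower. On chromosome 19 (56273166 to 56720569) RFPL4A, ZSCAN5B (2.33) and ZSCAN5C (1.27) were raised among 12. On chromosome 5 (17486336 to 17655647) TAF11L2 (2.01), H3Y2, H3Y1 and unnamed clusters between them rose in 6 of 6 cases. The unnamed cluster at 17585271 to 17585873 read 4.92, 5.18 and 5.61 with vector and 9.44, 9.22 and 9.25 with MBD-VP16. Another cluster with no symbol, on chromosome 2 (210673528 to 210674304), rose 28.3-fold, from 4.72, 5.16 and 5.19 to 9.82, 9.9 and 9.82. By chromosome, the share raised was highest on 8 (3.98%, or 2.35% of distinct value sets) and was 0.0% on 21 and Y.

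**Figure D4:**
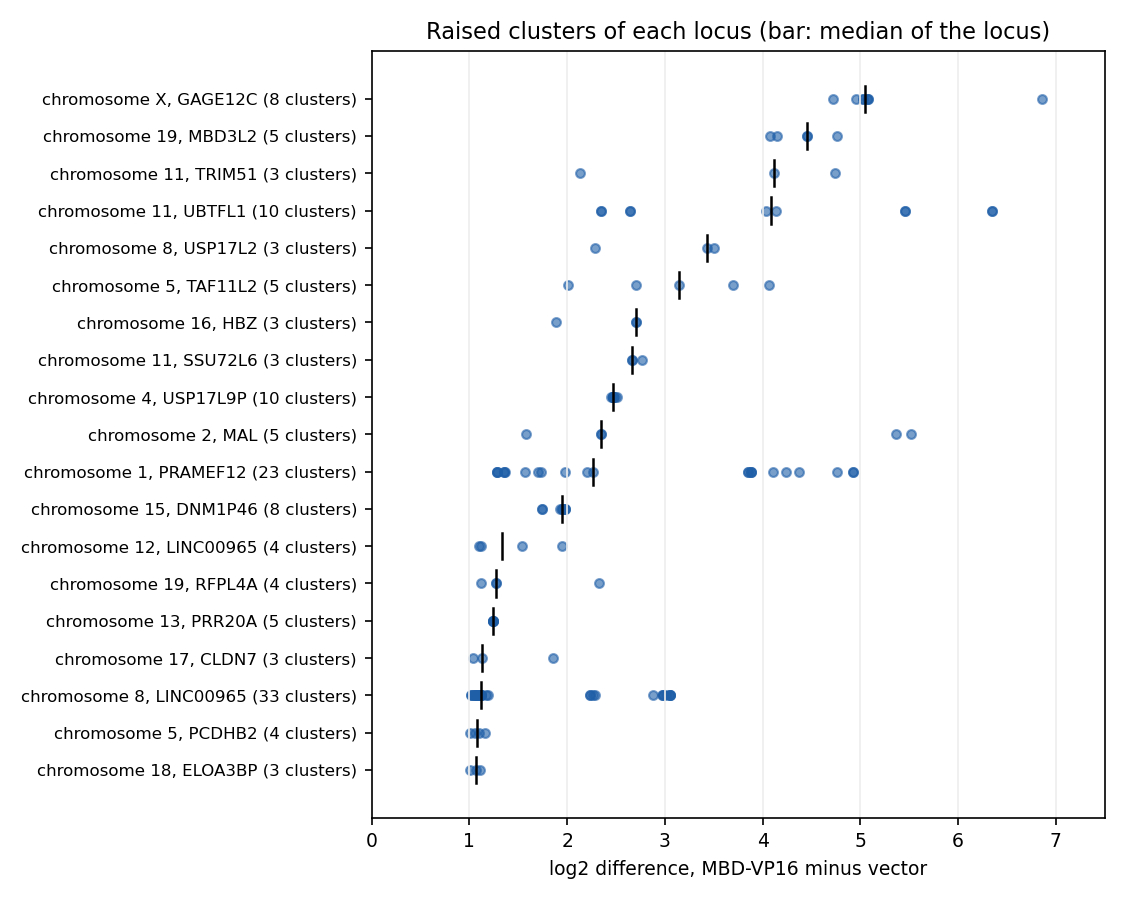
Log2 difference, MBD-VP16 minus vector, of each raised cluster (points) in 19 of the 20 loci (the HOXA locus is not drawn), named by chromosome and first gene, with the locus median as a bar. GAGE and MBD3L2 clusters lie above 4, PRAMEF clusters range from 1.28 to 4.92, and protocadherin clusters lie close to 1.

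Promoter CpG content of the raised genes covered the whole range. CpG observed over expected was taken in the promoter window of 13398 genes with a promoter and a cluster of a single symbol, where the median was 0.78. Low-signal genes that were not called had a median of 0.32 (2962 genes), and the 28 low-signal genes that were raised had 0.38. The 66 raised genes had a median of 0.65, and 23 of them (34.8%) lay above the median of all genes. Raised genes above the low-signal level had 0.76. Among genes called higher at any size, 24 HOX and other homeobox genes had 0.83 and 16 cleavage-stage genes had 0.26. The 903 genes called lower had 0.86. Of the genes shown above, SLC34A2 (1.02), ZIC1 (0.93) and CCNA1 (0.88) start in CpG-rich windows, and TRIM48 (0.1), MBD3L2 (0.35) and GAGE12C (0.44) start in windows with fewer. SLC34A2, TRIM48, MBD3L2 and GAGE12C are read by clusters of several names and lie outside the sets counted here. The window of ROS1, the other name on the SLC34A2 cluster, has 0.25. CpG content does not say whether a promoter is methylated in these cells, which was not measured on these arrays.

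**Figure D5:**
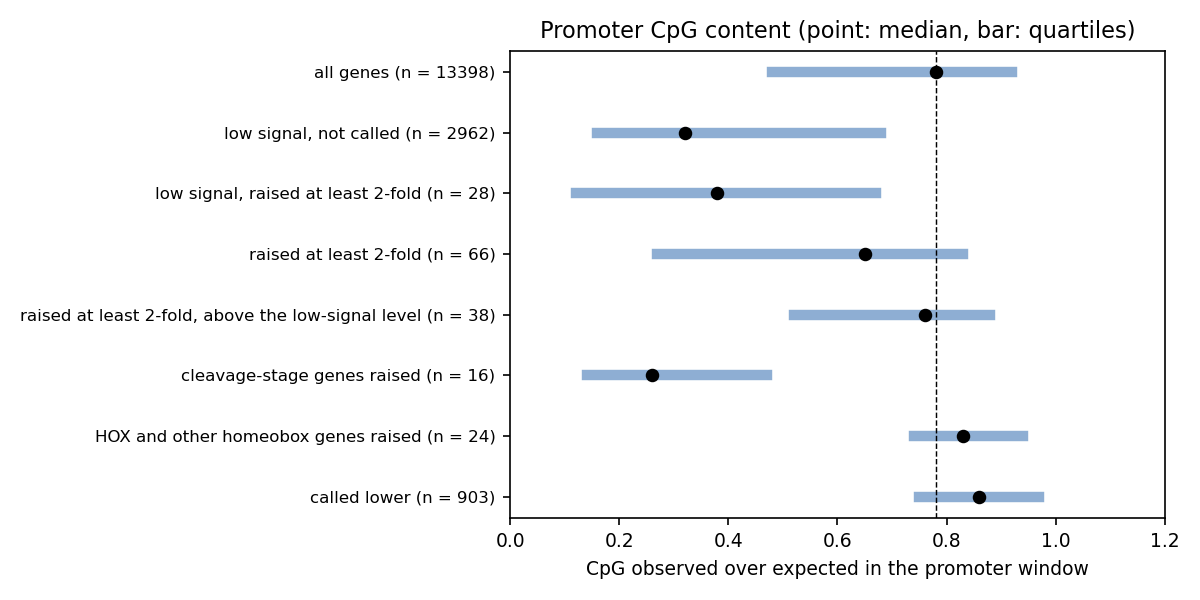
CpG observed over expected in the promoter window for sets of genes with a single symbol, with the median as a point and the quartiles as a bar; the dashed line is the median of all genes, 0.78. Cleavage-stage genes called higher lie low (0.26), homeobox genes called higher lie high (0.83), and raised low-signal genes (0.38) close to low-signal genes that were not called (0.32).

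The motif TAANNNAATCA, searched on both strands, was found in 249 of 27305 promoter windows (0.912%). Among the 66 raised genes 6 (9.09%) held it, and among the 28 raised low-signal genes 5 (17.9%), against 36 of 2962 (1.22%) low-signal genes that were not called. None of the 24 homeobox genes held it, but only 82 of the 13398 genes with a single symbol did (0.612%). A set of 24 genes is therefore too small to show a contrast. Counting also genes read by clusters with several symbols, 24 of 127 genes of raised clusters held it, among them TRIM48, TRIM49D2, MBD3L2 and its copies, H3Y1, H3Y2, SSU72L2, PRAMEF7 and PRR20A. Many of these are near-identical copies that share their sequence and are not independent. Counted from the start, the match lies at -146 in TRIM48, at -67 in MBD3L2 and at 16 in ZSCAN5B. The pattern lets any base stand in its middle, so a match need not be a DUX4 site. Matches are a description of the sequence, and binding was not measured.

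Falls were smaller, and those named here were found with Aire too. ANKRD1, a stress-responsive ankyrin gene, read 10.76, 10.85 and 10.84 with vector, 8.15, 8.22 and 8.29 with Aire and 8.63, 8.77 and 8.77 with MBD-VP16. It fell by 2.09 ± 0.071 (limma adjusted p = 2.29e-07). BEX1, a brain-expressed X-linked gene, read 7.95, 7.92 and 8.02 with vector, 6.57, 6.5 and 6.57 with Aire and 5.81, 5.64 and 6.27 with MBD-VP16. SCG3, a secretory granule protein, fell by 1.60, NR1D1, a circadian nuclear receptor that shares its cluster with THRA, by 1.47, CPNE4, a copine, by 1.37 and NPR3, the natriuretic peptide clearance receptor, by 1.2. All 6 were called lower with Aire too, where 2.82% of all clusters were, with every Aire array below every vector array. Between MBD-VP16 and Aire, ANKRD1 was called (0.5 higher with MBD-VP16, limma adjusted p = 0.00653) and the other 5 were not, while 19 clusters (0.074%) were called lower in that comparison. Of the 46 clusters that fell at least 2-fold, 12 had low vector signal, 15 had no symbol and 7 were small RNAs. Of 200 small RNA clusters 27 were called lower and 5 higher, beside 5.14% and 4.75% of all clusters.

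Of 30 leukocyte marker clusters 2 were called higher (CD52 and CD68, each by 0.64) and 0 lower, and of 25 fibroblast, endothelial and muscle clusters 5 were higher and 0 lower. Interferon-stimulated genes, which can respond to transfected DNA, were called higher in 12 of 51 clusters (23.5%) and lower in 0. Only 4 of the 12 were also higher than with Aire. With Aire against vector 6 of the 51 were called higher, where 1.58% of all clusters were. IFITM1 rose by 1.43 ± 0.083 and BST2 by 1.03 ± 0.116. BST2 was also 0.73 above vector with Aire, and its difference from Aire missed the threshold (0.3, limma adjusted p = 0.379). Their part in the rises of other genes was not tested.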

How the data were processed

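RNA was read on Affymetrix gene arrays, 3 per construct, labelled biologic replicates; whether they came from separate cultures is not said, so p-values cover only array-to-array spread, which may be technical. The deposited values are log2 expression values, summarised by RMA per the submitters' processing notes. The authors' deposited table gave symbols, positions (build not given in the sources used here) and cross-hybridisation types; its log2 fold changes, p-values and 9 per-array columns were not used. Of 28829 clusters 3150 held no value. Symbols were updated by Entrez number (19695 of 20417 matched) and promoters came from RefSeq (GRCh38.p14).

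All 9 arrays were fitted by group in limma 3.58.1 (R 4.3.3) with Benjamini-Hochberg adjustment over 25679 clusters. On simulated data of this size, with 50 clusters planted at each log2 change, 28% of changes of 0.5, 80% of 1 and 100% of 2 and 4 were called, with 6 false calls. The number of arrays limits precision (median SE 0.104). Named genes are the 30 largest rises and 10 largest falls among called clusters whose arrays do not overlap (clusters without a symbol and small RNAs only counted), up to 6 called members per list by adjusted p, all raised clusters of a locus, the MBD genes, and the 5 low-signal clusters on each side of the 2-fold line. Members named to show a rise that was absent, and others given outside this rule, were chosen after their values were seen. Some genes under the rule are not reported here. The members and lists were chosen with earlier results of these data known. Same-numbered arrays were not shown to be pairs (correlations of deviations -0.0686 to 0.135). Alternatives covered normalization, variance trend, cross-hybridisation, arrays fitted, the low-signal level and each array left out.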

Additional observations from a re-analysis of the deposited data

How the results depend on the processing

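The 40 clusters with the highest and lowest changes kept their direction and side of the threshold in all 605 alternative values. They were picked from the same values as called clusters with large changes and arrays that do not overlap. Their stability follows largely from that choice and says little about smaller changes. The cleavage-stage count (80) was 22 without clusters open to cross-hybridisation, which leaves 26 in the class, and 78 to 80 when any array was left out. Without such clusters there were 49 raised low-signal clusters (106 in the full set), 4 loci (20), 230 calls against Aire (482) and 0 higher X-linked cancer-testis clusters (30). That last count was 17 with centred arrays, 17 after repeated quantile normalization, 13 with only the arrays of the 2 groups compared, and 18 with identical clusters counted once, a setting chosen after seeing the data. Calls numbered 3814 with an intensity trend and 1469 with the 2 groups alone (2539). Higher calls were 773 with the 2 groups alone (1220). Lower calls were 2286 with centred arrays, 2103 with the trend and 696 with the 2 groups alone (1319). Protocadherins (16) gave 10 with centred arrays and 10 with the 2 groups alone, and other homeobox genes (21) gave 32 with the trend. A low-signal level at the 75th percentile of olfactory receptors gave 52 raised clusters, and calls at any fold gave 101 loci. The causes were not tested beyond the fewer clusters or arrays used.

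With the replicate block there were 1934 calls, 943 higher and 991 lower, 382 against Aire and 14 X-linked cancer-testis clusters. The same numbers on arrays are not known to mark pairs.

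Leaving out each array in turn gave 1346 to 2406 calls (1346 without MBD-VP16 2, 1444 without MBD-VP16 3), 733 to 1140 higher (733 and 753 without the same arrays) and 613 to 1266 lower. Lower calls were 858, 613 and 691 without MBD-VP16 1, 2 and 3, and 840 and 866 without vector 1 and 2. Calls against Aire ran from 312 (without Aire 2) to 507, X-linked cancer-testis clusters from 13 to 25, protocadherins from 7 to 14, HOX genes from 13 to 19, loci from 17 to 20 and raised low-signal clusters from 100 to 109. Small changes are limited by the number of arrays. A filter on low signal gave no value for class, locus and low-signal counts.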

Other observations

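Of 46 placental clusters 12 were called higher with MBD-VP16 and 2 lower, beside 4.75% and 5.14% of all clusters. The 6 CGB clusters, which encode the beta chain of chorionic gonadotropin and share sequence, rose by 0.79 to 0.88, and a cluster of the pregnancy-specific glycoproteins PSG4 and PSG1 fell by 0.72 (chosen for naming after its value was seen). Of 42 imprinted clusters 6 were higher and 2 lower. DLK1, a fetal Notch ligand relative, rose by 1.03, IGF2, a fetal growth factor, by 1.01 and H19, its neighbouring noncoding RNA, by 0.89. Of 94 histone clusters 11 were higher and 4 lower.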
